A study of Mus musculus with 5 samples.

Results

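The granins and the enzymes that process prohormones were followed as 8 genes, chosen by symbol: the granin family members Scg2, Scg3, Chga and Chgb, the granin-like chaperone gene Scg5, and the enzyme genes Pcsk1, Pcsk2 and Cpe. An annotated probe set was found for 7 of the 8, and Pcsk2 was not analysed here. Cpe had 2 probe sets and each of the others had 1, which made 8 probe sets. All 7 genes passed the filter on dim probe sets, out of 6650 genes that passed it. The second Cpe probe set did not pass: its deposited signals were 6.3 to 7.4 on the 5 arrays.

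The ventromedial hypothalamus (VMH), a nucleus known for its part in satiety and energy balance, was taken by laser microdissection from C57Bl/6 mice. Animals under isoflurane were given 1 or 7 electroconvulsive shocks (ECS), a brief current of 25 mA through ear clips that evokes a seizure. The brains were taken at 2 h or 6 h, counted from the single shock or from the last of 7, and sham mice, which were handled alike but got no current, were collected at 2 h. Each of these 5 groups was measured on 1 Affymetrix array, from a pool of RNA of 2 or 3 mice. The sample titles say VMH, while a description field says PVN. The age and sex of the mice were not given in the sources used here, and the sham group has no 6 h counterpart.

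Granins are acidic proteins that aggregate in the Golgi and are packed with peptide prohormones into dense-core vesicles, the storage organelles of the regulated secretory pathway. In these vesicles convertases cut prohormones at pairs of basic residues, carboxypeptidase E trims the exposed residues, and the mature peptides wait for a calcium signal to be released. Hypothalamic neurons, which signal with many peptides, carry this pathway at a high level, and several of its genes are known cyclic AMP response genes in neuroendocrine cells.

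The promoter stretches of Scg2, Pcsk1 and Chgb are shown because each holds a complete cyclic AMP response element (CRE, TGACGTCA). This is the site bound by the activity-regulated factor CREB. Higher than sham on all 4 ECS arrays were Scg2 and Pcsk1, and also Scg3, Chga and Scg5, which lack a complete CRE. Chgb was not, and 19.8% of all genes were. For Chga, Scg5 and Chgb this changed in some settings. Whether the CRE bears on the signals was not tested. Each is the 250 bases before a RefSeq transcript start of the gene (GRCm38.p6), read in the direction of the gene. The stretches lie at chr1:79440027-79440276 on the minus strand for Scg2, chr13:75089607-75089856 on the plus strand for Pcsk1 and chr2:132781392-132781641 on the plus strand for Chgb. For Pcsk1 the start used lies inside the annotated gene, which begins at chr13:75089420. Capitals mark the CRE and any other match to its core TGACG on either strand.
Scg2: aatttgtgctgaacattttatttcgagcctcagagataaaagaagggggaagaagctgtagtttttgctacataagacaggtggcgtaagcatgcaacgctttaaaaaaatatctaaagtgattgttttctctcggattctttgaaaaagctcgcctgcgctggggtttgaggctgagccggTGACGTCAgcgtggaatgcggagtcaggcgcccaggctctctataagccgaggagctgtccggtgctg
Pcsk1: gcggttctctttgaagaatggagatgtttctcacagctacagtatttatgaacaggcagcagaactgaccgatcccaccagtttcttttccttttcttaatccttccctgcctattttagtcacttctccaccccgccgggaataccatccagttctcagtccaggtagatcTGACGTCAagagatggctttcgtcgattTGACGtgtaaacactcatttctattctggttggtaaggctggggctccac
Chgb: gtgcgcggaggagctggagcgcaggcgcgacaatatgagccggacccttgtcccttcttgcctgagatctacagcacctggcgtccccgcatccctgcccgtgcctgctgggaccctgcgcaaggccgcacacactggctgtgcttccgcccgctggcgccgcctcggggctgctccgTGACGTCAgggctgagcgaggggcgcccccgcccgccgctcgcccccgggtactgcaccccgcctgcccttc

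The CRE begins 68 bases before the start in Scg2, 78 bases before it in Pcsk1 and 72 bases before it in Chgb. Of the 7 genes with a promoter in the RefSeq table, which include Pcsk2 and leave out Cpe, 3 hold the complete CRE, against 1.56% of 32536 promoter windows of the same length. The core TGACG, which also matches inside each CRE, was found in 7 of the 7, against 17.9% of all windows. In Chga it begins 44 bases before the start, in Scg3 30 bases before it, and in Scg5 175 bases before it. For Scg3, on the minus strand, the start used also lies inside the annotated gene, whose outermost base is chr9:75685959. The AP-1 motif TGANTCA, the site of Fos and Jun dimers, was found in 0 of the 7 and in 6.73% of all windows. The GC box GGGCGG was found in 4 of the 7 (33.0% of all windows). These are matches of letters on both strands, and binding of a factor was not measured.

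The deposited values are MAS5 signals, 1 intensity per probe set. The arrays differed in overall level, with median signals of 20.3 at 2 h and 26.9 at 6 h after 1 shock, 31.6 at 2 h and 30.9 at 6 h after 7 shocks, and 23.4 in sham. ECS values set side by side follow this order. Before any rescaling, the probe sets that passed the filter stood on the ECS arrays at -0.13, 0.40, 0.50 and 0.48 relative to sham on the log2 scale. Signals given here are therefore centred on each array's median, with a pseudocount of 1.2 included, and differences are log2 differences of centred signals. With 1 array per group, neither an error nor a significance test can be given. A gene is counted as higher or lower where the log2 difference reaches 1, which is 2-fold. As a guide to technical scatter, the 2 brightest probe sets of a gene disagreed by a median of 0.44 to 0.48 on the log2 scale across the 8 comparisons (2470 genes), and this covers neither animals nor pools. Signals of different genes come from different probes and are not ranked against each other. The activity genes Fos, Jun, Egr1 and Arc were all past 2-fold against sham at 2 h after 1 shock and after 7 shocks. None of these 4 was past 2-fold at 6 h after 1 shock, and 3 were at 6 h after 7 shocks, where Jun was at 1.08 but at -0.49 on its other probe set.

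The tissue label was checked against marker genes. Of 7 VMH markers, 5 passed the filter, and the defining factor Nr5a1 read 67.3 after 1 shock at 2 h and 94.8 in sham, the lowest values of the 5 arrays. The summed signal of Nr5a1, the vesicular glutamate transporter gene Slc17a6 and the synaptic organiser gene Cbln1 was 1177 at 2 h and 1760 at 6 h after 1 shock, 1417 at 2 h and 1369 at 6 h after 7 shocks, and 1298 in sham. The other two kept markers, Adcyap1, also a peptide precursor, and Nptx2, a gene known to be induced by neuronal activity, were lowest in sham. With them the sum was 2594 to 3663 on the ECS arrays and 2071 in sham. Anterior pituitary, a tissue rich in granins, was not seen: of its 6 hormone genes none passed the filter, and the brightest of their deposited signals was 4.3 to 8.4 on the ECS arrays and 4.6 in sham, although none was exactly 0. All 13 neuron markers passed, with a summed signal of 18500 to 20870 on the ECS arrays and 18104 in sham.

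**Figure D1:**
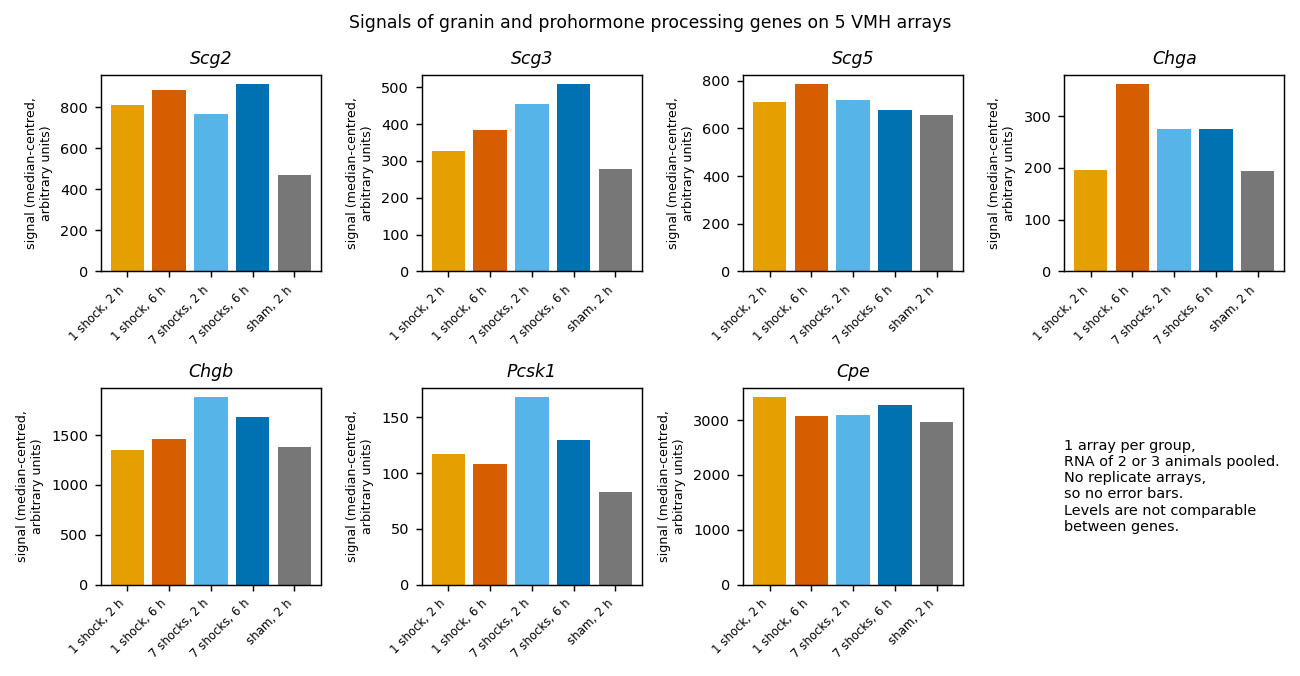
Median-centred signal (arbitrary units, linear axis from 0) of the 7 measured genes on each of the 5 arrays, with 1 bar per array and no error bars because each group is 1 array. The sham bar is the lowest in every panel except that of Chgb, where 1 shock at 2 h is lower; for Scg5, Chga and Cpe this order changed in some settings.

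Scg2 encodes secretogranin II, the precursor of the peptide secretoneurin. Its signal was 811 at 2 h and 882 at 6 h after 1 shock, and 766 at 2 h and 914 at 6 h after 7 shocks, against 472 in sham. The 4 ECS arrays lay close together and sham stood apart below them. Against sham the log2 differences of Scg2 were 0.78, 0.90, 0.70 and 0.95, the last being 1.94-fold. Between 87.5% and 92.4% of all genes had a smaller signed difference than Scg2 in these 4 comparisons. Scg2 was the 1 gene of the 7 that stood at least 0.5 above sham on all 4 ECS arrays, which 3.71% of all genes did. Its highest array stood 1.94-fold over its lowest, and 48.4% of all genes had a narrower range over the 5 arrays. In a bulk sample, fewer cells that make a transcript and less of it per cell cannot be told apart.

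Scg3 encodes secretogranin III, which binds chromogranin A and cholesterol-rich vesicle membrane and helps sort granins into vesicles. Its signal was 328 at 2 h and 384 at 6 h after 1 shock, and 454 at 2 h and 509 at 6 h after 7 shocks, against 278 in sham. Both 7-shock arrays read higher than both 1-shock arrays. Relative to sham the differences were 0.24 and 0.47 after 1 shock, at 2 h and 6 h, and 0.71 and 0.87 after 7 shocks at the same times. Both differences after 1 shock are smaller than the usual disagreement between probe sets of a gene.

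Chga encodes chromogranin A, the precursor of the vasostatins and catestatin. Chga read 196 at 2 h and 362 at 6 h after 1 shock, and 275 at 2 h and 275 at 6 h after 7 shocks, against 194 in sham. The array of 1 shock at 6 h was the highest, and that of 1 shock at 2 h lay near sham. The differences from sham were 0.02, 0.90, 0.50 and 0.51, and the first of them was below 0 under 3 of the other settings that put the arrays on a common level.

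Chgb encodes chromogranin B, a granin abundant in brain vesicles. Signals were 1351 at 2 h and 1456 at 6 h after 1 shock, and 1879 at 2 h and 1677 at 6 h after 7 shocks, against 1382 in sham. The 7-shock arrays read above sham by 0.44 at 2 h and 0.28 at 6 h, both within the disagreement between probe sets. The differences after 1 shock, -0.03 at 2 h and 0.08 at 6 h, changed sign between settings.

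Scg5 encodes a small secretory chaperone that binds the Pcsk2 convertase and is needed for its activation. It read 709, 786, 718 and 676 on the ECS arrays against 657 in sham. Its differences from sham were 0.11, 0.26, 0.13 and 0.04, and the last changed sign between settings. Its range of 1.20-fold over the 5 arrays was narrower than that of nearly all genes (2.47% had a narrower one). The probe set of Scg5 stood at the 95.5th percentile of brightness, and genes of like brightness were not compared.

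Pcsk1 encodes a prohormone convertase that makes the first cuts in proopiomelanocortin, proenkephalin and other precursors. Its centred signal was 117 at 2 h and 108 at 6 h after 1 shock, and 168 at 2 h and 130 at 6 h after 7 shocks, against 82.8 in sham. The deposited signals were 88.4, 118.5, 199.2 and 151.1 on these ECS arrays and 68.4 in sham. Sham was the lowest of the 5 arrays and 7 shocks at 2 h the highest on either scale. The log2 differences from sham were 0.50, 0.38, 1.02 and 0.64. Pcsk1 at 2 h after 7 shocks, at 2.03-fold, was the only one of the 28 differences of these 7 genes from sham to reach 2-fold, and 93.8% of all genes had a smaller signed difference in that comparison. The call lies at the threshold: the value was 0.98 with a pseudocount of 6.1, 0.96 with the top 25% of probe sets and 0.95 with centring on the brightest 10%, none of them past 2-fold.

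Cpe encodes carboxypeptidase E, which removes the basic residues left by the convertases and also serves in sorting prohormones to vesicles. It read 3416 at 2 h and 3074 at 6 h after 1 shock, and 3088 at 2 h and 3276 at 6 h after 7 shocks, against 2964 in sham. All 5 values lay within 1.15-fold, a range that only 1.23% of all genes undercut. Its probe set stood at the 99.5th percentile of brightness, and genes of like brightness were not compared. The differences from sham were 0.20, 0.05, 0.06 and 0.14, of which those of 1 shock at 6 h and 7 shocks at 2 h changed sign between settings.

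**Figure D2:**
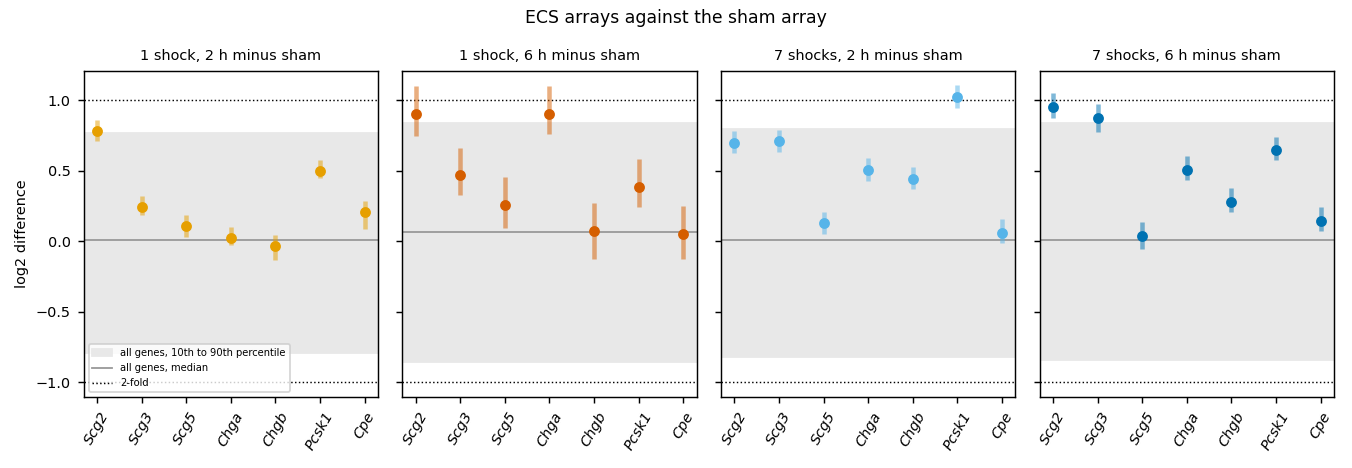
Log2 difference of each gene from sham, with 1 panel per ECS array; points are the values reported, coloured vertical lines span the settings that put arrays on a common level, the grey band runs from the 10th to the 90th percentile of all 6650 genes and dotted lines mark 2-fold. Scg2 lies above the upper edge of the band on 3 of the 4 arrays, and Pcsk1 at 2 h after 7 shocks is the point past 2-fold.

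Counted as a group against sham at 2 h after 1 shock, 6 of the 7 genes were above 0 (50.9% of all genes were), with a median of 0.20 against 0.01 for all genes, and 0 of the 7 were 2-fold higher (5.98% of all genes). At 6 h after 1 shock 7 of the 7 were above 0 (54.3% of all genes), with a median of 0.38 against 0.06, and 0 were 2-fold higher (6.74%). At 2 h after 7 shocks 7 of the 7 were above 0 (50.6% of all genes), with a median of 0.50 against 0.01, and 1 was 2-fold higher (6.57%). At 6 h after 7 shocks 7 of the 7 were above 0 (50.7% of all genes), with a median of 0.51 against 0.01, and 0 were 2-fold higher (6.78%). None of the 7 was 2-fold lower in any of these comparisons, where the share of all genes was 6.29%, 7.35%, 6.72% and 7.07%. The shares past 2-fold were thus 0 or 1 of 7 in each comparison and do not set these genes apart from the background.

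These 4 comparisons share the sham array. Higher than sham on all 4 ECS arrays, and so lowest on sham, were 6 of the 7 genes (19.8% of all genes). The count was 3 under cyclic loess, in the top 25% of probe sets and with centring on the brightest 10%, and the genes left were then Scg2, Scg3 and Pcsk1. It was 4 under quantile normalization and without rescaling, and 7, Chgb included, with no filter on dim probe sets. Set against the mean of the other 4 arrays, the sham array was lower for all 7 genes in the reported setting, with a median of -0.48 against -0.01 for all genes, and by -0.83 for Scg2, -0.64 for Pcsk1, -0.57 for Scg3 and -0.48 for Chga. The 4 ECS arrays had medians of -0.02, 0.01, 0.15 and 0.16 on this measure. With 1 sham array, a low sham pool and a higher level after shocks cannot be told apart. The Gapdh 3' to 5' signal ratio, which reflects RNA and amplification quality, was 8.77, 5.37, 5.88 and 5.55 on the ECS arrays and 6.67 in sham, and its part in these values was not tested. For beta-actin it was 0.889, 1.10, 0.783 and 0.593 on the ECS arrays and 0.799 in sham.

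The sham array drops out when ECS arrays are compared with each other. At 2 h, 7 shocks against 1 gave differences of 0.52 for Pcsk1, 0.48 for Chga, 0.48 for Chgb and 0.47 for Scg3, and these 4 genes lay close together. Scg2 was at -0.08, Scg5 at 0.02 and Cpe at -0.15, and the values of Scg5 and Cpe changed sign between settings. In all, 5 of 7 were above 0 (49.8% of all genes), with a median of 0.47 against 0.00 for all genes, and 0 were 2-fold higher or lower (6.92% and 6.83% of all genes).

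At 6 h, 7 shocks against 1 gave 0.41 for Scg3, 0.26 for Pcsk1 and 0.20 for Chgb, while Chga was at -0.39 and Scg5 at -0.22. Scg2 (0.05) and Cpe (0.09) changed sign between settings. The median was 0.09 against -0.05 for all genes, with 5 of 7 above 0 (46.9% of all genes) and 0 past 2-fold (7.91% higher and 8.59% lower of all genes). The 2 h and 6 h comparisons share no array, and Scg3, Pcsk1 and Chgb were higher after 7 shocks than after 1 at both times. Of these differences those of Scg3, Chgb and Pcsk1 at 2 h were about the size of the usual disagreement between probe sets, and those at 6 h were below it. Nor was the direction particular to them. Neuron markers had medians of 0.25 at 2 h and 0.21 at 6 h, with 10 of 13 above 0 at each time. Peptide precursor genes had 0.27 and 0.51, with 13 of 17 above 0 at each. Genes for dense-core vesicle sorting and release were at -0.09 and -0.07, and other processing enzymes and inhibitors at -0.15 and 0.16.

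From the time comparisons, 6 h against 2 h after 1 shock gave 0.88 for Chga, with 362 at 6 h and 196 at 2 h (1.84-fold). The other 6 genes were between -0.15 and 0.23. The median was 0.12 against 0.06 for all genes, with 5 of 7 above 0 (53.9% of all genes) and 0 past 2-fold (7.41% higher and 7.59% lower). After 7 shocks the 6 h array against the 2 h array gave 0.00 for Chga, a value that changed sign between settings, and Pcsk1 was the furthest from 0 at -0.38, with signals of 130 at 6 h and 168 at 2 h. Scg2 was at 0.25 and Scg3 at 0.17, while Chgb was at -0.16. The median was 0.00 against 0.02 for all genes, with 4 of 7 above 0 (51.6% of all genes) and 0 past 2-fold (6.30% higher and 6.65% lower).

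**Figure D3:**
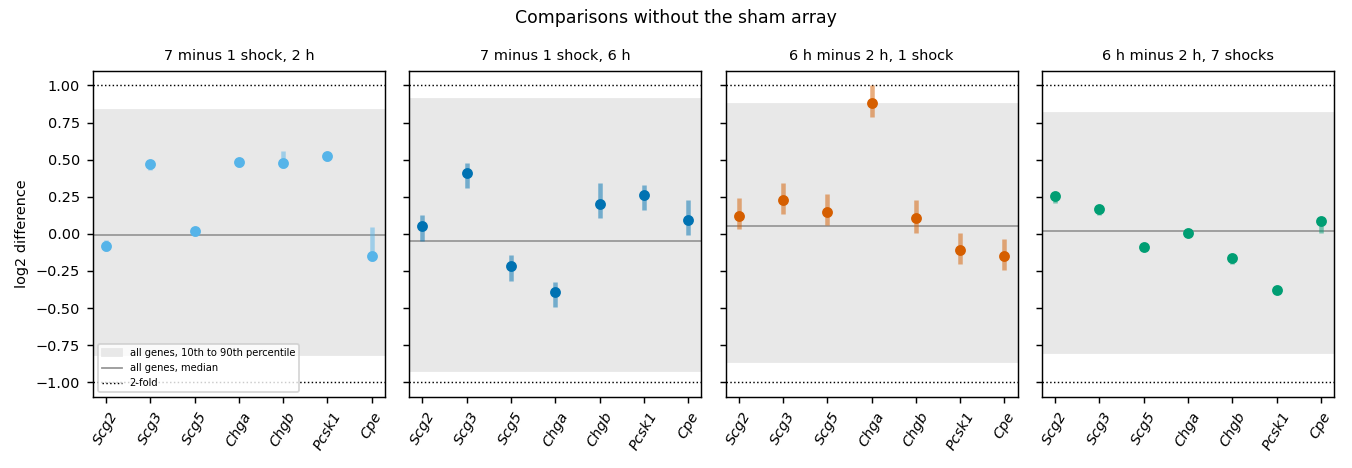
Log2 differences of the 7 genes in the comparisons that leave out sham: 7 shocks minus 1 at 2 h and at 6 h, and 6 h minus 2 h after 1 and after 7 shocks; points, vertical lines, the grey band and dotted lines are as in the plot of differences from sham. Chga at 6 h after 1 shock (0.88) is the point that leaves the rest, and it is at 0.00 after 7 shocks.

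The rest of the secretory pathway was read from lists of other genes. Of 23 other processing enzymes and inhibitors, 13 passed the filter, and their medians against sham were -0.10 and -0.02 after 1 shock at 2 h and 6 h, and -0.23 and -0.03 after 7 shocks at 2 h and 6 h. The numbers 2-fold higher were 0, 2, 1 and 1, and those 2-fold lower were 0, 1, 0 and 1. Ctsl, which encodes cathepsin L, a lysosomal protease that also cuts proneuropeptides in vesicles, read 203, 217, 278 and 250 on the ECS arrays and 103 in sham, with differences of 0.98, 1.08, 1.44 and 1.28. Pcsk1n, which encodes an inhibitor of the Pcsk1 convertase and is itself granin-like, was at -0.08, 0.33, -0.23 and -0.14. Pam, the amidating enzyme that completes many peptides and was named for that role outside the naming rule, was at 0.20, 0.17, 0.33 and 0.52. Furin, a convertase of the constitutive pathway, was 2-fold lower than sham at 6 h after 1 shock (28.4 against 57.4). Pcsk4, a convertase known from germ cells, was lower at 6 h after 7 shocks (18.7 against 59.1). Qpctl, a Golgi glutaminyl cyclase gene, was higher at 6 h after 1 shock (60.3 against 27.7). The calls of Furin, Pcsk4 and Qpctl rest on low signals, each from 1 kept probe set. The other kept genes of this list lay between -0.98 and 0.71 on their brightest probe sets. The other probe set of Cpd was at -1.03 at 6 h after 1 shock.

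Of 5 other granin-like genes, 4 passed, with medians of 0.02, 0.25, -0.18 and -0.02. Nucb1, a calcium-binding Golgi protein gene, was the 1 past 2-fold, at 1.44 after 1 shock at 6 h and 1.05 after 7 shocks at 6 h. Its signals there were low, 62.1 and 47.3 against 22.8 in sham, from 1 kept probe set. Nucb2, the precursor of nesfatin, was at -0.12, -0.15, -0.39 and -0.02. Of 28 genes for dense-core vesicle sorting and release, 17 passed, with medians of 0.06, -0.09, 0.03 and -0.03 and with 0 past 2-fold higher and 0, 1, 1 and 1 past 2-fold lower. Sort1, a sorting receptor gene, was past 2-fold at 6 h after 1 shock, at -1.02, where its other probe sets were at -1.57 and 0.07. Syt9, a synaptotagmin gene, was past it at 2 h after 7 shocks, at -1.13, on low signals (18.9 against 41.2 in sham) from 1 kept probe set. Rab27b, which encodes a GTPase of vesicle docking, was past it at 6 h after 7 shocks, at -1.13, with its other probe set at 0.17. The remaining kept genes of the list lay between -0.95 for Vamp3 and 0.80 for Ptprn on their brightest probe sets. The other probe sets of Vamp3 ran from -0.98 to 0.97 at 6 h after 7 shocks, and from -0.50 to 1.60 at 2 h after 7 shocks.

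Of 30 peptide precursor genes, the cargo of the pathway, 17 passed. Their medians against sham were 0.03, 0.07, 0.24 and 0.52, and 9, 9, 12 and 15 of the 17 were above 0. Adcyap1, which encodes PACAP, a peptide of VMH neurons, had signals of 900, 1341, 1375 and 1171 on the ECS arrays and 611 in sham. Penk, the enkephalin precursor, read 259, 218, 298 and 432 on those arrays and 135 in sham. Tac1, the substance P precursor, read 1005, 1021, 926 and 1035 there and 605 in sham. These 3 were lowest on the sham array, and so were Trh and Gal (19.8% of all genes were). Each other kept precursor read lower than sham on 1 or more ECS arrays. Past 2-fold higher were 0, 1, 3 and 2 of the 17, and past 2-fold lower were 1, 3, 2 and 0. At 6 h after 1 shock Vip was at -3.66, with a signal of 4.07 against 51.3 in sham. Cck was at -2.82 there (10.5 against 74.1). Npy, the appetite peptide gene of the arcuate nucleus, was at -1.54 (29.5 against 85.8). At 2 h after 7 shocks Tac2, the neurokinin B precursor, was at -1.68 (15.0 against 48.0 in sham) and Npy at -1.06. Hcrt, the orexin precursor, was at -1.37 at 2 h after 1 shock (26.1 against 67.2 in sham). Oxt, the oxytocin precursor, was at 1.69 and 1.67 after 7 shocks (52.8 and 52.1 against 16.4 in sham). The values of Vip, Cck, Npy, Tac2, Hcrt and Oxt thus rest on low signals, each from 1 kept probe set. The remaining kept precursors lay between -0.60 and 0.96 on their brightest probe sets.

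Medians of marker lists against sham differed in direction. Neuron markers were at -0.01 and -0.10 after 1 shock and 0.27 and 0.24 after 7 shocks, with 6, 5, 11 and 9 of 13 above 0. The 5 VMH markers were at -0.01, 0.73, 0.38 and 0.46, and without Adcyap1 and Nptx2 at -0.18, 0.46, 0.20 and 0.35. The 2 kept markers of 5 for the PVN and supraoptic nucleus, Oxt and Trh, had medians of 0.60, -0.13, 0.99 and 1.10, with summed signals of 176, 143, 188 and 210 on the ECS arrays and 126 in sham. Arcuate markers, which label the neighbouring nucleus, were at -0.52, -0.52, -0.70 and 0.58 (4 of 7 kept), with summed signals of 558, 668, 618 and 1047 on the ECS arrays and 785 in sham. Tbr1, the 1 kept marker of 5 for cortical and amygdalar neurons, was at -0.06, -5.13, 0.77 and 0.99, and it read 1.90 at 6 h after 1 shock and 66.4 in sham.

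Of the glial markers, microglia had the lowest medians, at -0.16, -0.28, -0.99 and -0.70 (6 of 9 kept), with 2, 3, 2 and 2 above 0. Their summed signals were 1335, 1517, 1586 and 1489 on the ECS arrays and 1548 in sham. Csf1r was at -1.31, -0.87, -1.52 and -1.17, but at -0.34, 0.53, 0.10 and 0.24 on its other kept probe set. Astrocyte markers were at 0.01, -0.10, -0.30 and -0.17 (8 of 8 kept), with summed signals of 4763, 4397, 4078 and 4265 on the ECS arrays and 4352 in sham. Oligodendrocyte markers were at -0.07, 0.06, -0.14 and -0.01 (5 of 8 kept), with summed signals of 5487, 5631, 4776 and 4942 on the ECS arrays and 4912 in sham. The 2 kept of 6 endothelial markers had medians of -0.66, 0.46, -0.98 and -0.39, with summed signals of 66.8, 150, 53.6 and 79.7 on the ECS arrays and 108 in sham. Neither annotated blood marker passed the filter, and the brightest deposited blood signal was 13.7 on the ECS arrays and 15.0 in sham. None of these markers had a deposited signal of 0 on its brightest probe set on any array. The part of tissue composition in the granin values was not tested.

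**Figure D4:**
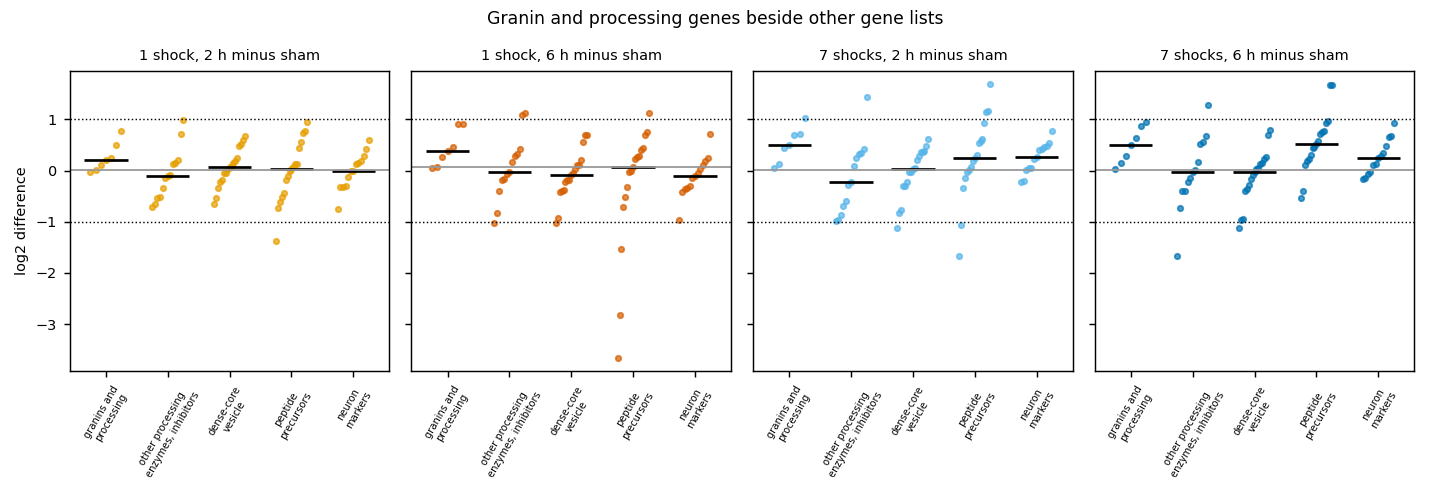
Log2 difference from sham of each kept gene (points) in 5 lists, with the list median as a black bar, the median of all genes as a grey line and dotted lines at 2-fold, with 1 panel per ECS array. The granin and processing genes have medians of 0.20, 0.38, 0.50 and 0.51, and the dense-core vesicle list has medians of 0.06, -0.09, 0.03 and -0.03.

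Pcsk1 was the only one of the 7 whose range over the 5 arrays reached 2-fold (48.3% of all genes did). The genes whose centred profiles were nearest to that of Pcsk1, by root mean square difference over the 5 arrays, were Qrich1 (0.06), Pbx2 (0.06) and Dpm1 (0.07) on the log2 scale. Qrich1 read 255, 251, 382 and 302 on the ECS arrays and 204 in sham. This nearness is a description over 5 arrays.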

How the data were processed

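The authors deposited MAS5 signals, a linear intensity for each probe set, per the submitters' processing notes; no source used here gives the version, the target level or detection calls. Per the labels' protocols, 2 ng of RNA was amplified and 5 µg of labelled cDNA hybridised. The table held 22690 probe sets. Leaving out 64 controls, 691 probe sets with several symbols and 1555 with none left 20380. Before log2, 1.2 was added to each value as a pseudocount (their 10th percentile). The top 50% of non-control probe sets by mean log2 were kept (10402, for 6650 genes), each array was centred on their median, and a gene took its brightest kept probe set. There were 8 comparisons, none with a test because each group is 1 array; the number of arrays limits the precision. The procedure was tested on simulated data.

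The rule for named genes took the 7 genes with a probe set, the genes of the 4 secretory pathway lists past 2-fold from sham or among the 4 largest of a list (of the latter, a part is named and the rest given as a range), and the 3 nearest profiles of any of the 7 with a 2-fold range. The genes and lists were chosen with earlier results of these data known. The alternatives tried were quantile and cyclic loess normalization, no rescaling, pseudocounts of 0 and 6.1, no filter or the top 25%, the mean of probe sets, leaving out probe sets with cross-hybridisation suffixes, and, added after the data were seen, centring on the brightest 10%. Promoters came from RefSeq (GRCm38.p6), in 32536 distinct windows, with a match for 7 of the 8 genes. Python 3.11.15, numpy 2.4.6, pandas 2.3.3, matplotlib 3.10.9, R 4.3.3 and limma 3.58.1 were used.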

Additional observations from a re-analysis of the deposited data

Results flagged for a closer look

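Chga was the 1 gene of the 7 that moved by at least 0.25 in opposite directions under the same contrast. The share of all genes that met this rule was not counted, so the flag does not set Chga apart from the background. For 7 shocks against 1, Chga was at -0.39 at 6 h and 0.48 at 2 h. The difference between the contrasts was thus -0.88 on the log2 scale. Its signals were 275 after 7 shocks and 362 after 1 shock at 6 h, and 275 after 7 shocks and 196 after 1 shock at 2 h. That difference was -0.98 to -0.78 under the other settings that put the arrays on a common level and -1.43 without rescaling. Each Chga value rests on 1 array and 1 probe set, and the difference was not tested. Among listed genes outside the 7, the same change of sign was seen for Nr5a1, at 0.87 at 2 h and -0.27 at 6 h. It was also seen for Hcrt (1.38 and -0.50), Cartpt (0.40 and -0.61), Pdyn (0.70 and -0.28) and Qpctl (0.57 and -0.96). The reverse change was seen for others, among them Npy (-0.96 and 1.99) and Furin (-0.71 and 0.63). Resp18, of the dense-core vesicle list, was at 0.42 and -0.47. The 5 VMH markers had medians of 0.22 and -0.21, while neuron markers were at 0.25 and 0.21. Of these VMH markers, Slc17a6 (0.22 and 0.01 on its brightest probe set) and Nptx2 (-0.73 and -0.21) did not change sign.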

How the results depend on the processing

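Most counts and medians were within 1.5 times, or within the disagreement between probe sets, under the alternatives tried, and no call of 2-fold changed direction. Without rescaling, where the arrays keep their unequal levels, the medians of the 7 genes were 1.01 and 0.99 at 2 h and 6 h after 7 shocks against sham, 1.11 for 7 shocks against 1 at 2 h and 0.65 for 6 h against 2 h after 1 shock (all genes 0.51, 0.50, 0.63 and 0.59). The numbers past 2-fold were then 4 and 3 at 2 h and 6 h after 7 shocks, 2 at 6 h after 1 shock, 4 for 7 shocks against 1 at 2 h and 1 for 6 h against 2 h after 1 shock. With no filter on dim probe sets, 2 genes were past 2-fold at 6 h after 1 shock (Scg2 and Chga) and 1 at 6 h after 7 shocks (Scg2). The single call at 2 h after 7 shocks (Pcsk1) became 0 with a pseudocount of 6.1, with the top 25% of probe sets and with centring on the brightest 10%. The number higher than sham on every ECS array, 6 of 7, was 3 under cyclic loess, the top 25% and the brightest 10% centring, 4 under quantile normalization and without rescaling, and 7 with no filter. The cause was not tested. Leaving out the ECS arrays 1 at a time gave 6 or 7. No paired analysis was possible because each group is 1 array, which also leaves no replicate to leave out. Depth has no direct counterpart on arrays, and detection calls were not used here.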
